A study of Mus musculus with 6 samples.

Results

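Long-chain fatty acids have to be joined to coenzyme A before a cell can burn, store or build them into membranes, and this activation step is carried out by 2 gene families. The ACSL genes encode long-chain acyl-CoA synthetases, and the FATP genes (Slc27a) encode fatty acid transport proteins, which aid fatty acid uptake and also act as acyl-CoA synthetases, several of them on very long chains. Family members differ in their place in the cell and in the tissue that uses them, so they are thought to feed different fates of the same fatty acids. In fat and muscle the best known member is ACSL1, and in the epidermis it is FATP4, which is needed for the water barrier. The genes described are the 10 rows of the deposited expression table whose names are Acsl1, Acsl3, Acsl4, Acsl5, Acsl6, Slc27a1, Slc27a2, Slc27a3, Slc27a4 and Slc27a6, out of 21959 genes in all. The rule names gene families and uses no measured value, though earlier results of these data were known when the genes were chosen.

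The study asked how topical rebamipide, a gastric ulcer drug, acts on mouse skin and hair regrowth. Male wild-type C57BL/6 mice, 7 weeks old, had their backs shaved in telogen, the resting phase of the hair cycle. They then received vehicle (30% dipropylene glycol in water) or 3% rebamipide on the shaved skin once a day for 7 days, and RNA of full-thickness dorsal skin was sequenced from poly-A libraries of 3 mice per group. Depth was 38676018 to 39915276 counts per vehicle library, against 32709801 to 34706852 per rebamipide library. The groups also differed in the markers of the tissue, and in keratins the last rebamipide library stood apart most. The vehicle libraries held 26099 to 64371 counts of Krt14, the keratin of basal keratinocytes, and the rebamipide libraries held 10954, 6102 and 0, so the defining marker of epidermis was absent from the library labelled rebamipide 3. Ucp1, the uncoupling protein of brown fat, had 0 counts in each vehicle library and 81048 to 220449 in the rebamipide libraries. Krt5, the partner keratin of Krt14, had 4 counts in rebamipide 3. With the groups so different in tissue markers, an effect of the drug and a difference in the tissue that was sampled (its site, its depth or its share of fat) cannot be told apart, and this bears on every fold change given below. In bulk samples fewer cells of a type and less RNA per cell cannot be told apart either.

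The deposited annotation places all 10 gene products in the endoplasmic reticulum. It places 6 of them in the mitochondrial outer membrane (the 5 ACSL proteins and Slc27a1), 5 in the peroxisomal membrane (Acsl1, Acsl3, Acsl4, Acsl6 and Slc27a2), 8 in the plasma membrane and 2 on lipid droplets (Acsl3 and Acsl4). Of the 10 genes, 9 carry the KEGG annotation PPAR signaling pathway, the exception being Slc27a3, and the 5 ACSL genes carry fatty acid degradation. RefSeq promoter windows on GRCm38.p6 were used for 9 of the 10 genes, 14 windows in all, with Slc27a6 left out. The 250 bases before the transcription start are shown, 5′ to 3′ on the strand of the gene, for the 4 genes that passed the test described below, with both annotated starts of Acsl1. Capitals mark exact matches on either strand to GGGCGG (the GC box, whose overlapping copies run together), CCAAT (the CCAAT box) and AGGTCA (the hexamer bound by nuclear receptors such as the PPARs).
Acsl1, chr8:46470787-46471036, plus strand: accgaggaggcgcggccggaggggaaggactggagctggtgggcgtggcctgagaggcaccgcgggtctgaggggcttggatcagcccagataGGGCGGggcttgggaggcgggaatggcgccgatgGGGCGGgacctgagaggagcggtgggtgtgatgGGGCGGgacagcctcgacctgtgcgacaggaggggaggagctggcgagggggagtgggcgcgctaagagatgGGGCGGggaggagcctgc
Acsl1, chr8:46490716-46490965, plus strand: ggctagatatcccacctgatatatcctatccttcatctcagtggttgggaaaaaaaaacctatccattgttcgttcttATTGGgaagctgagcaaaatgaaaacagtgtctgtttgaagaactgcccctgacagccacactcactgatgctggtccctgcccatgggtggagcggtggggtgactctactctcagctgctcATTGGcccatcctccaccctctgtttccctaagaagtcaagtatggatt
Slc27a2, chr2:126552774-126553023, plus strand: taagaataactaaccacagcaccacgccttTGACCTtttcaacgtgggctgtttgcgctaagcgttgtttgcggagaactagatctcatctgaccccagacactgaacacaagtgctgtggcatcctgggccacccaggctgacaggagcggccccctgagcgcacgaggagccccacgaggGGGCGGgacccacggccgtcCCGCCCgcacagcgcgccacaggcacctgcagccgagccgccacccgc
Acsl4, chrX:142390536-142390785, minus strand: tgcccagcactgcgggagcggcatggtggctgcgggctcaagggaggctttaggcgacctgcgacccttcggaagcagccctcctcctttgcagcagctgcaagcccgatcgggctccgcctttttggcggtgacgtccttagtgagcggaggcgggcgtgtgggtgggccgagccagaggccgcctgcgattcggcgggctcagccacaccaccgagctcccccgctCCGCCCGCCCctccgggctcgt
Slc27a4, chr2:29802384-29802633, plus strand: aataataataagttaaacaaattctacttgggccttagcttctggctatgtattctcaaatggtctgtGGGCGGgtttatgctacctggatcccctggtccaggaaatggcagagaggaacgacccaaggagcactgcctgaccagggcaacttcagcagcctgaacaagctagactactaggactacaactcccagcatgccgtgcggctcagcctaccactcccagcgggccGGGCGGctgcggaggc
The GC box was in 11 of the 14 windows, against 32.7% of 32851 windows of the same length over all genes. The 2 starts of Acsl1 differed in make-up. The first held 20 CG dinucleotides and 4 GC boxes, and the second held 2 CG dinucleotides, no GC box and 2 CCAAT boxes, where the median of all windows is 6 CG dinucleotides. Gene counts do not tell which start was used. The AGGTCA hexamer was found in the Slc27a2 window and in 1 of the 3 windows of Acsl6, and in 14% of all windows. TATAAA and CACGTG were searched for as well, and TATAAA was in 0 of the 14 windows (12.4% of all), while CACGTG was in 1 window of Slc27a1 (6.02% of all). A match is a match of letters and not a binding site.

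In the rebamipide group Acsl1 and Slc27a2 rose, Acsl4 and Slc27a4 fell, and the other 6 genes did not pass the test (edgeR's quasi-likelihood test, Benjamini-Hochberg adjustment over 14875 genes, adjusted p-value under 0.05). All 10 genes passed the expression filter, Slc27a2 through its rebamipide libraries alone. Over all genes tested, 14.1% were called higher and 6.51% lower by the same rule, so the 2 of 10 members in each direction stand near the background for rises and, on only 2 genes, above it for falls. By DESeq2, the tool of the study, 3 of the 10 genes were higher and 4 lower, against 18.3% and 17% of all genes. Groups did not overlap for 8 of the 10 genes, 4 of them with the higher values under rebamipide and 4 with the lower, where 24.5% and 24% of all genes did likewise. The median log2 fold change of all genes tested was -0.17. In all, 2093 genes were higher and 968 lower, and with scaling by total counts alone 1258 were higher and 3752 lower.

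**Figure D1:**
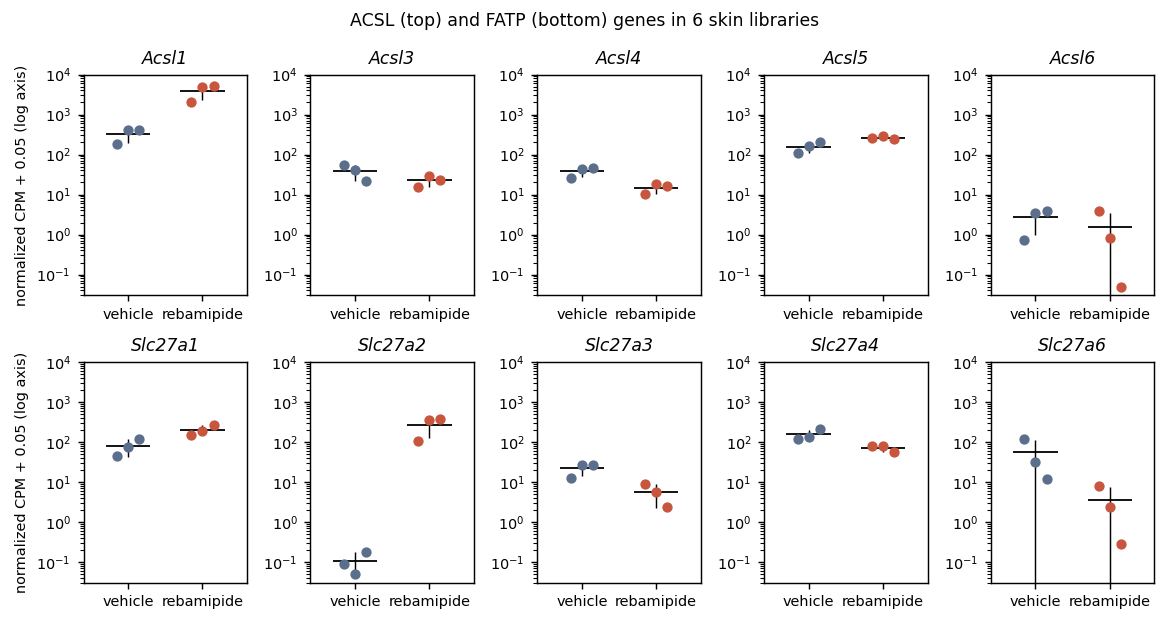
Normalized CPM (with 0.05 added, log axis) of the 10 genes in the 3 vehicle and 3 rebamipide libraries, with points for libraries, horizontal lines for means and vertical lines for ± SD (those that would reach below the axis end at its lower edge). Acsl1 and Slc27a2 are above every vehicle value in each rebamipide library, and Acsl3 and Acsl6 overlap between the groups.

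Acsl1 (ENSMUSG00000018796, chromosome 8, 46924074 to 46989088 on GRCm39) encodes the main long-chain acyl-CoA synthetase of fat, heart and muscle. Libraries of the vehicle group held 179, 399 and 400 normalized CPM (counts scaled to the TMM-adjusted library size) of it, and those of the rebamipide group 2007, 4845 and 5061. The lowest treated value was thus several-fold above the highest vehicle value. The mean went from 326 ± 127 to 3971 ± 1704 CPM (SD, n = 3 each), a log2 fold change of 3.61 ± 0.56 (SE) at an adjusted p = 0.0126 (edgeR). Without the second vehicle library the adjusted p-value was 0.0786, and without the second rebamipide library it was 0.0624 (edgeR), with fold changes of 3.73 and 3.45 on the log2 scale. DESeq2 called Acsl1 higher in each of its fits that left out 1 library.

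Acsl5 (ENSMUSG00000024981, chromosome 19, 55240370 to 55286152) encodes a synthetase found on mitochondria and endoplasmic reticulum and is best known from intestine and liver. It was at 109, 161 and 204 CPM with vehicle and at 253, 296 and 249 CPM with rebamipide. The groups did not overlap, yet the log2 fold change of 0.75 (standard error 0.28) missed the threshold (adjusted p = 0.0979, edgeR). With scaling by total counts alone, which moved the median of all genes to -0.78, it was 0.14. Zdhhc6 overlaps Acsl5 on the opposite strand and Utp14b lies within the span of Acsl3 on the same strand, so reads could be shared there.

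Acsl4 (ENSMUSG00000031278, chromosome X, 141100989 to 141173531) encodes the synthetase with a preference for arachidonic acid, known for its part in ferroptosis. Libraries of the vehicle group held 25.6, 42.4 and 45 CPM of it, and those of the rebamipide group 10.1, 18.2 and 15.9 CPM. Every treated library was below every vehicle library. The mean went from 37.6 ± 10.6 to 14.8 ± 4.16 CPM (n = 3 each), a log2 fold change of -1.35 ± 0.33 (SE) at an adjusted p = 0.0381 (edgeR). This call was lost without the vehicle 2 or vehicle 3 library (adjusted p = 0.13 and 0.0763, edgeR) and without the rebamipide 2 or rebamipide 3 library (0.101 and 0.0858), while the log2 fold change stayed between -1.6 and -1.14. With the score of fast muscle genes as a covariate the log2 fold change was -1.39 ± 0.41 (SE) and the adjusted p = 0.0634 (edgeR). DESeq2 called Acsl4 lower with all libraries (adjusted p = 0.00438) and with each library left out (0.00012 to 0.0416).

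Acsl3 (ENSMUSG00000032883, chromosome 1, 78635542 to 78685460) encodes a synthetase of the endoplasmic reticulum that moves onto forming lipid droplets. Its values were 55.8, 39.9 and 21.4 CPM with vehicle and 15.2, 29.5 and 23.6 CPM with rebamipide, and the groups overlapped (-0.78 ± 0.42 on the log2 scale, SE, with adjusted p = 0.212, edgeR). With scaling by total counts alone the log2 fold change of Acsl3 was -1.44 (adjusted p = 0.0418, edgeR). In FPKM the groups did not overlap, with a lowest vehicle value of 5.93 and a highest rebamipide value of 5.06. Acsl6 (ENSMUSG00000020333, chromosome 11, 54194624 to 54255582), the form best known from brain, was the lowest of the family. It had 34, 168 and 181 counts in the vehicle libraries and 113, 20 and 0 in the rebamipide libraries, where a count of 0 allows up to 3 counts or 0.0864 CPM before TMM scaling, for counting error only. The fold change of Acsl6 was -0.81 ± 1.43 (SE) on the log2 scale, at an adjusted p = 0.691 (edgeR). It was -2.75 without rebamipide 1 and -0.23 without rebamipide 3 (edgeR). Beside the counts of Acsl6, the summed fast skeletal muscle markers (7 genes) came to 3558, 14513 and 18283 CPM under vehicle, and to 21759, 4707 and 179.8 CPM under rebamipide. The 3 libraries with the most Acsl6 were the 3 with the most muscle transcripts, and with the fast muscle score as a covariate the log2 fold change of Acsl6 was -0.67 ± 0.43 (SE), at an adjusted p = 0.292 (edgeR).

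Slc27a2 (ENSMUSG00000027359, chromosome 2, 126394327 to 126430163) encodes FATP2, a very long-chain acyl-CoA synthetase of peroxisomes and endoplasmic reticulum best known from liver and kidney. It was all but absent from the vehicle group, with 2, 0 and 6 counts in the 3 libraries, and had 3127, 8826 and 9535 counts in the rebamipide libraries. In normalized CPM this is 0.0561 ± 0.0656 against 270.3 ± 145 (n = 3 each). The fit gave 12.17 ± 1.19 (SE) on the log2 scale, at an adjusted p = 0.00939 (edgeR). The ratio of the means was 4816, and the 8 vehicle counts have a 95% exact Poisson interval of 3.45 to 15.8, which puts this ratio between 2444 and 11155 by counting error of the vehicle counts alone. Without the second vehicle library the adjusted p-value was 0.0747, and without the second rebamipide library it was 0.0573 (edgeR), while DESeq2 called it in each fit with 1 library left out. The edgeR log2 fold change ran from 11.55 without vehicle 2 to 13.48 without vehicle 3.

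Slc27a1 (ENSMUSG00000031808, chromosome 8, 72021526 to 72039946) encodes FATP1, the insulin-responsive transporter of muscle and fat. It was at 44, 72.7 and 117 CPM with vehicle and at 152, 191 and 266 CPM with rebamipide. The groups did not overlap, and the log2 fold change of 1.38 (standard error 0.41) missed the threshold with edgeR (adjusted p = 0.0601). It passed with DESeq2 (adjusted p = 0.017), which lost the call without vehicle 2 (0.0909) and without rebamipide 3 (0.0678).

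Slc27a4 (ENSMUSG00000059316, chromosome 2, 29692646 to 29707534) encodes FATP4, the member that the epidermal barrier depends on. Libraries of the vehicle group held 115, 135 and 208 CPM of it, and those of the rebamipide group 79, 77.1 and 54.8 CPM. Every treated library was below every vehicle library. On the log2 scale the difference was -1.12 (standard error 0.29, adjusted p = 0.0437, edgeR). The call did not hold in any of the 6 edgeR fits that left out 1 library (adjusted p = 0.0537 to 0.139), nor with the muscle covariate (0.0663, log2 fold change -0.95), without the filter on low counts (0.0541) or with a replicate block (0.114). Without the rebamipide 3 library, the one with 0 counts of Krt14, the log2 fold change was -0.96, and without vehicle 3 it was -0.82. Rebamipide 3 was the only library without which DESeq2 lost the call as well (adjusted p = 0.0644).

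Slc27a3 (ENSMUSG00000027932, chromosome 3, 90292546 to 90297245) encodes FATP3, for which synthetase activity is better established than transport. It was at 12.5, 26 and 26.7 CPM with vehicle and at 8.73, 5.38 and 2.25 CPM with rebamipide (-1.99 ± 0.57 on the log2 scale, SE, with adjusted p = 0.0542, edgeR). Slc27a6 (ENSMUSG00000024600, chromosome 18, 58689329 to 58745845), which encodes FATP6, was spread over a wide range within each group. It was at 120, 31.4 and 12 CPM with vehicle and at 7.67, 2.3 and 0.229 CPM with rebamipide, and its log2 fold change of -4.00 had a standard error of 1.38, with the adjusted p = 0.0834 (edgeR). The groups of both genes did not overlap, and DESeq2 called both lower (adjusted p = 0.00334 and 0.00193). For Slc27a3 this held with each library left out. For Slc27a6 it was lost without vehicle 1 (adjusted p = 0.079, DESeq2) and without rebamipide 2 (0.0687). The edgeR log2 fold change of Slc27a6 was -2.65 without vehicle 1 and -5.42 without rebamipide 1. The summed growing hair follicle markers (6 of 7 listed genes) came to 15131, 7051 and 162 CPM under vehicle, and to 834, 0.39 and 0.153 CPM under rebamipide. The vehicle library with the most Slc27a6 was also the one with the most hair follicle transcripts, and the part of the follicles in its level was not tested.

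**Figure D2:**
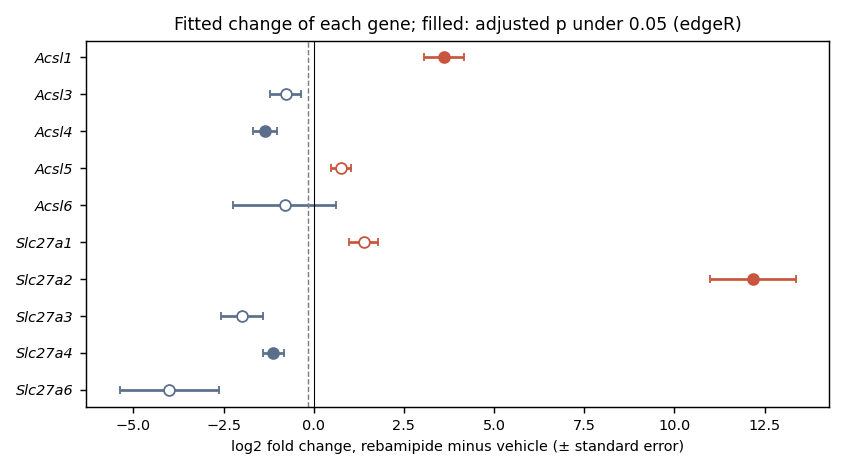
Fitted log2 fold change of each gene (rebamipide minus vehicle, edgeR, bars show the standard error, n = 3 libraries per group), filled where the adjusted p-value was under 0.05, with a dashed line at the median of all genes tested. Slc27a2 lies far to the right at 12.17, and the 2 filled points on the left are Acsl4 at -1.35 and Slc27a4 at -1.12.

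The make-up of each family was then compared as the share of each gene in the summed FPKM of its 5 genes, where FPKM are counts divided by gene length and library total. This share is taken within a library and so does not depend on the scaling between libraries. Acsl1 made up 29.9%, 43.1% and 40.7% of the ACSL sum in the vehicle libraries and 76.9%, 86.7% and 89% in the rebamipide libraries. Its mean share went from 37.9 ± 7.01% to 84.2 ± 6.46% (n = 3 each), and the mean share of each other ACSL gene was smaller with rebamipide. Acsl5 made up 40.4 ± 3.87% with vehicle and 13.9 ± 6.09% with rebamipide, although its normalized CPM were higher in every treated library. Acsl4 went from 8.68 ± 0.336% to 0.643 ± 0.106% and Acsl3 from 12.7 ± 8.85% to 1.23 ± 0.206%, and the groups overlapped only for Acsl6. Summed over the family, FPKM came to 72.8, 109 and 113 under vehicle, and to 231, 398 and 409 under rebamipide.

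In the FATP family the gene that led with rebamipide was the last of the 5 in each vehicle library, and the vehicle libraries had 3 different orders. Slc27a4 held 30.1%, 46.5% and 57.2% of the FATP sum in the vehicle libraries and 23%, 12.1% and 7.97% in the rebamipide libraries. Slc27a2 held at most 0.0414% with vehicle and 35.2%, 63.2% and 62.2% with rebamipide, where it was the first of the 5 genes in every library by the lengths of the table. With the length of the longest transcript Slc27a1 led instead in the rebamipide 1 library, with 43.5% against 32.5%. Slc27a1 held 17.3 ± 7.94% with vehicle and 28.4 ± 5.44% with rebamipide, with overlap between the groups. Slc27a6 held 55.6%, 19.2% and 5.86% with vehicle, so that it was the leading gene in the first vehicle library and next to last in the vehicle 3 library, and it held 3.97% or less with rebamipide. The summed FATP FPKM overlapped between the groups, at 111, 81.1 and 99.7 with vehicle and 72.3, 108 and 118 with rebamipide. For the shares a two-sided exact permutation test was run on each of the 10 genes. With 3 libraries against 3 its smallest possible p-value is 0.1, which was reached by 8 genes (0.125 after adjustment over the 10), so that no share could pass 0.05.

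**Figure D3:**
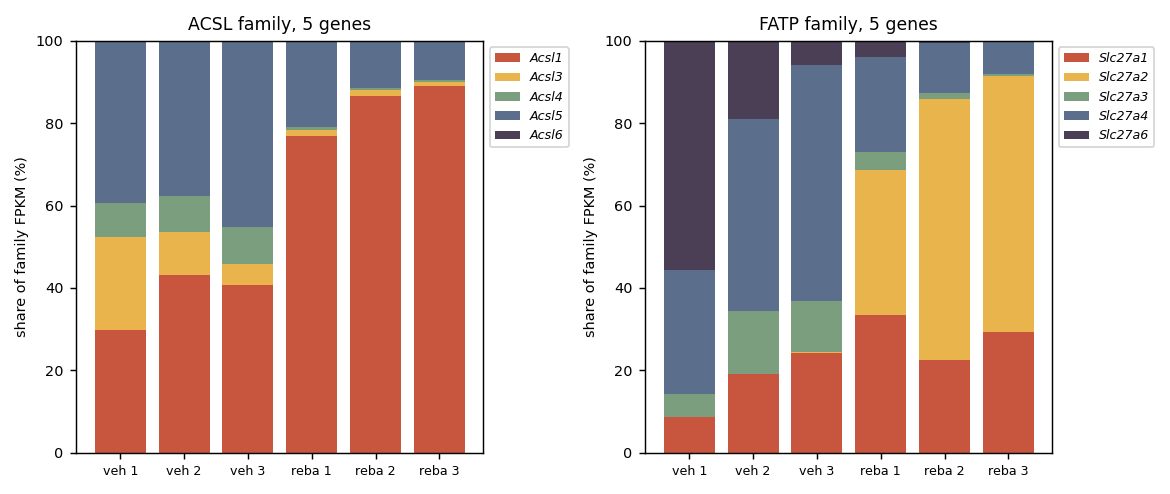
Share of each gene in the summed FPKM of its family (%) in each of the 6 libraries (veh, vehicle; reba, rebamipide). Acsl1 takes 76.9% to 89% of the ACSL sum with rebamipide, and Slc27a2, not visible with vehicle, takes 35.2% to 63.2% of the FATP sum.

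By level per gene length (FPKM), the order in the vehicle libraries was not settled at the top. Acsl5 (40 ± 11.1 FPKM) and Acsl1 (38.3 ± 14.3 FPKM) changed places between libraries and did not differ beyond their spread. The gene lengths of the table equal the union of all GENCODE M21 exons for these 10 genes, and for Acsl1 this is 10483 bases where its longest transcript has 5676. With the length of the longest transcript instead, an alternative chosen after seeing the data, Acsl1 was ahead of Acsl5 in all 3 vehicle libraries, with 41.3% to 55.4% of the ACSL sum against 29.8% to 36.1%. In the rebamipide libraries the order was the same in all 3. It was Acsl1 (296 ± 103 FPKM), Acsl5 (44.1 ± 4.91), Acsl3 (4.13 ± 0.906), Acsl4 (2.16 ± 0.391) and Acsl6 (0.136 ± 0.187). For the FATP genes it was Slc27a2 (55.7 ± 26.3 FPKM), Slc27a1 (27.7 ± 5.81), Slc27a4 (13 ± 3.63), Slc27a3 (1.79 ± 1.26) and Slc27a6 (1.21 ± 1.47). The last 2 overlapped in range, and in the first rebamipide library Slc27a2 and Slc27a1 were at 25.5 and 24.1 FPKM.

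Markers of fat cells moved with the drug group as well, so each gene was set beside the adipocyte markers of its own library (Adipoq, Plin1, Plin4, Cidec, Cfd, Retn, Lep, Adig and Trarg1). The measure is the log2 CPM of the gene minus the mean log2 CPM of these 9 genes, with 0.5 CPM added. Of the 9, 6 rose and Cfd, Retn and Lep did not pass the test. Acsl1 was 1.34, 1.57 and 0.85 above the markers in the vehicle libraries and 2.18, 3.65 and 3.27 above them in the rebamipide libraries. For Slc27a2 the mean of this difference was -7.86 with vehicle and -0.93 with rebamipide. Its vehicle value was set mostly by the added 0.5 CPM, since its vehicle mean was 0.0561 CPM. These 2 genes were the only members that were higher against the markers in every treated library. The other 8 were lower against them in every treated library, Slc27a1 and Acsl5 included, whose own CPM were higher. The means of Slc27a1 were -0.82 and -1.18 and those of Acsl5 were 0.26 and -0.76. Slc27a4 went from 0.21 to -2.68 and Acsl4 from -1.79 to -4.92. These differences are a description without a test. The genes were not set beside the brown adipocyte markers, which summed to 193 to 346 CPM with vehicle and 4558 to 12320.2 CPM with rebamipide. Whether a member rose beyond all fat cells of a library was thus not tested.

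**Figure D4:**
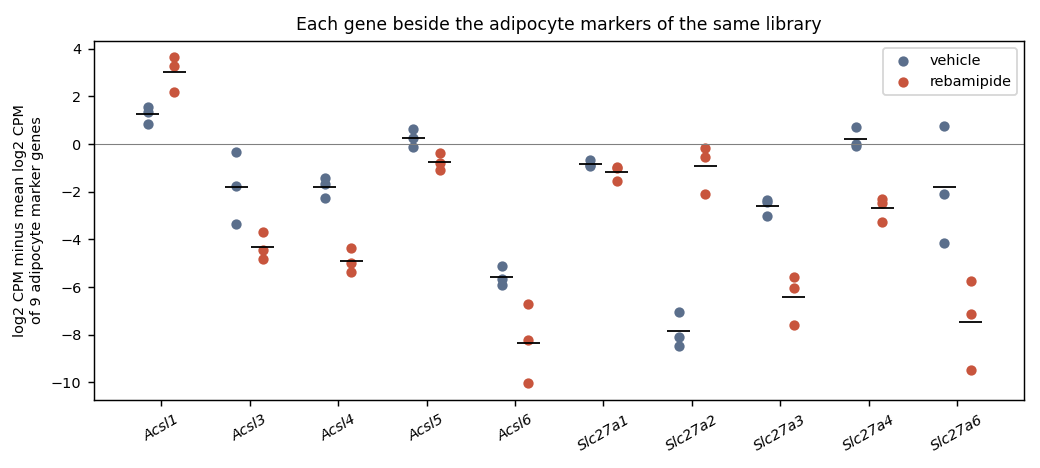
Log2 CPM of each gene minus the mean log2 CPM of 9 adipocyte marker genes in the same library (points, 3 libraries per group, lines at the means). Acsl1 and Slc27a2 are higher with rebamipide, and the other 8 genes are lower.

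Over the marker lists, summed CPM were higher in every rebamipide library for adipocytes (993 to 3702 with vehicle, 5796 to 7968 with rebamipide), brown adipocytes (193 to 346 against 4558 to 12320.2), endothelium (213 to 479 against 1049.7 to 1541) and blood (42.4 to 199.9 against 345 to 809). They were lower in every rebamipide library for basal keratinocytes (2513 to 4053 against 144 to 1183). Ranges overlapped for suprabasal keratinocytes (1154 to 5696 and 2.6 to 1388), growing hair follicle, sebaceous gland (511 to 1276 and 744 to 947, where Mgst1 alone gave 511 to 797 of the treated sum and the other 6 genes had negative log2 fold changes, of which Mc5r passed), fast skeletal muscle, slow muscle (2.07 to 13.5 and 7.02 to 290.1), leukocytes (308 to 869 and 197 to 639), fibroblasts (12002 to 17735 and 1849.6 to 15112) and Schwann cells (316 to 825 and 258 to 501). Of the genes on these lists, Ucp1 alone was at 0 in all 3 libraries of a group. Sums hide differences within a list. Of the 6 slow muscle genes 4 rose (Myh7, Myl2, Myl3 and Tnnc1) and 0 fell, with a median log2 fold change of 5.78. Of the 8 brown adipocyte genes 5 rose (Ucp1, Cidea, Dio2, Otop1 and Prdm16), while Elovl3 had -1.45 on the log2 scale (adjusted p = 0.0575, edgeR) and Zic1 had 0.09 (0.89). Apart from fast muscle, whose score was fitted as a covariate, the part of these shifts in the values of the 10 genes was not tested.

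The genes before and after activation were counted from 8 lists with 84 tested genes (88 listed), chosen with earlier results of these data known. Of these, 42 rose and 4 fell at an adjusted p-value under 0.05 (edgeR), beside the 14.1% and 6.51% of all genes given above. Without the second vehicle library 0 of them passed in either direction with edgeR, and without the second rebamipide library 1 rose and 0 fell. DESeq2 without the same libraries called 45 and 46 of them higher and 6 and 7 lower.

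Uptake and binding had 5 of 8 genes higher and 1 lower (median log2 fold change 2.22). Gpihbp1, which anchors lipoprotein lipase in capillaries, rose from 14.3 ± 4.72 to 125 ± 44.1 CPM, the acyl-CoA binding protein gene Dbi from 312 ± 36.2 to 1315 ± 328 CPM, and Fabp4, the fatty acid binding protein of fat cells, by 3.31 on the log2 scale. The gene that fell was Fabp5, the epidermal fatty acid binding protein (-1.88 on the log2 scale, with adjusted p = 0.0297, edgeR), a call that edgeR lost without any 1 of the vehicle libraries and without rebamipide 2, and that DESeq2 kept with each library left out. Of the other acyl-CoA synthetases, 4 of the 10 tested genes rose and 0 fell (median 2.12). These were Acsf3, which activates malonate in mitochondria (12.7 ± 0.863 to 100.3 ± 17.1 CPM), Acsf2, Acss1, the mitochondrial acetate synthetase (log2 fold change 3.92, standard error 0.5), and Acsm3. Slc27a5, the remaining FATP gene, had at most 4 counts in a library and was not tested.

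Of the mitochondrial beta-oxidation genes with the carnitine shuttle, 12 of 13 rose and 0 fell (median 4.1), the exception being Cpt1a (adjusted p = 0.167, edgeR). Acadvl, Acads and Acaa2 had the smallest p-values, with log2 fold changes of 4.45, 3.78 and 4.37. The change of Acsl1, at 3.61, was under the median of this list. Of the peroxisomal oxidation genes 8 of 10 rose and 0 fell (median 1.71; 5 rose without vehicle 1 and 4 without rebamipide 3), led by Ehhadh (log2 fold change 4.37), the bifunctional enzyme of the peroxisomal pathway. Of the glycerolipid synthesis genes 8 of 12 rose and 0 fell (median 2.24), among them the acyltransferases Gpat4 (3.23), Agpat2 (3.48) and Agpat3 (2.52). Of the thioesterases, which undo activation, 4 of 14 rose and 0 fell (median 0.67). They were Acot11 (5.3 ± 0.57 to 196 ± 26.6 CPM), Acot2, Acot13 and Acot4.

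The remaining lists had negative medians. Of the 7 phospholipid remodelling genes 0 rose and 2 fell (median -1.63), Lpcat2 (log2 fold change -1.89) and Mboat2 (-2.43), and Mboat1 had -2.27 without passing (adjusted p = 0.0763, edgeR). Of these 7, 4 were lower with DESeq2, and 4 and 5 with limma on log2(FPKM + 1) and log2(FPKM + 0.1), where 4809 and 4777 of all 14875 genes were lower. With edgeR the count of the 7 was 1 without rebamipide 3 or vehicle 3, and 0 without vehicle 1. Of the 10 genes of the epidermal acylceramide barrier 1 rose and 1 fell (median -2.24). The count of falls depended on the tool and on the library without Krt14. The rise was not called with edgeR without vehicle 1, vehicle 2, rebamipide 2 or rebamipide 3, with total counts alone, with the score of fast muscle genes as a covariate or with limma on either FPKM scale. The falls were 3 with DESeq2, 7 and 6 with limma on log2(FPKM + 1) and log2(FPKM + 0.1), and without rebamipide 3 they were 3 with edgeR and 8 with DESeq2. Over all genes, limma on these FPKM scales called 4809 and 4777 of 14875 lower. Without rebamipide 3, edgeR called 382 of 15327 genes lower and DESeq2 1865. Ugcg, the glucosylceramide synthase, had a log2 fold change of -1.17 (adjusted p = 0.0199, edgeR), Abhd5, which also activates the lipase ATGL, had 1.25 (adjusted p = 0.0306), and Elovl1 had -1.72 without passing (adjusted p = 0.0542). The summed CPM of this list were 887 to 2409.9 in the vehicle libraries and 659, 658 and 252 in the rebamipide libraries, the last being the library with 0 counts of Krt14.

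**Figure D5:**
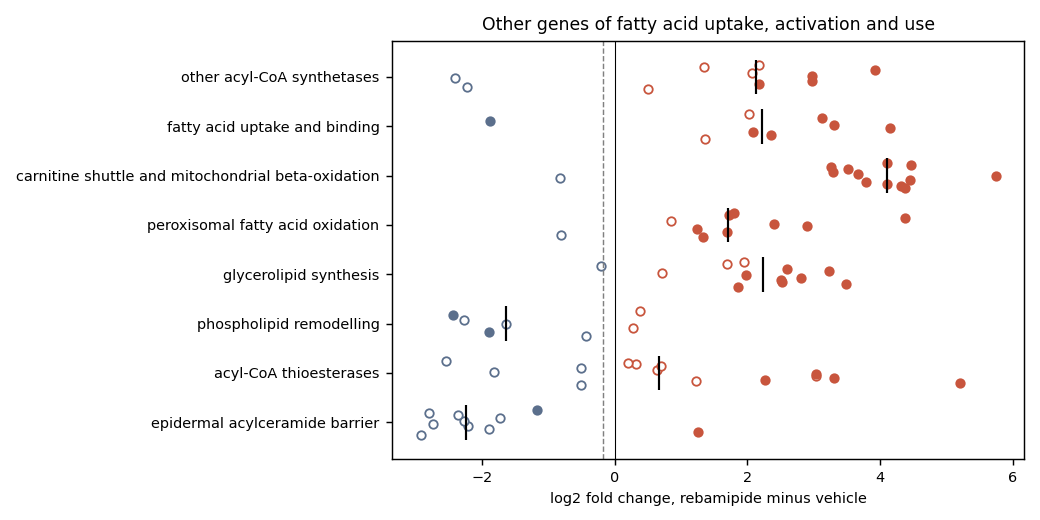
Log2 fold change (rebamipide minus vehicle, edgeR) of 84 genes in 8 lists, filled where the adjusted p-value was under 0.05, with a vertical line at each list's median and a dashed line at the median of all genes. Medians run from 4.1 for mitochondrial beta-oxidation to -2.24 for the acylceramide barrier.

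The genes most like each member were sought among all tested genes by the root mean square difference of centred log2 CPM over the 6 libraries, given as a description, since points of a group share the gap between the groups. Nearest to Acsl1 were Pfkfb3 (0.11), Eci3 (0.14) and Phyh (0.16), and nearest to Acsl4 were Alpk1 (0.11), Rp2 (0.13) and Zfp120 (0.15). Slc27a2 had no such close neighbours, with Otop1 at 0.34, Kcnk3 at 0.9 and Kng2 at 1. Otop1 is a gene of the brown adipocyte marker list. Nearest to Slc27a1 were Tns2, Fgd5 and Cav1 (0.08 to 0.11), and to Slc27a4 Filip1l, Mtmr11 and Rin1 (0.11 to 0.13). Slc27a6 was nearest to Tfap2b, Spint1 and Aldh1a3 (0.27 to 0.34), Slc27a3 to Emb (0.079), Acsl3 to Stox2, Arid2 and Mdn1 (each 0.13), Acsl5 to Trak1, Pnrc1 and Asb8 (0.058 to 0.078), and Acsl6 to Hoxa10, Pknox2 and Prob1 (0.092 to 0.12).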

How the data were processed

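RNA-seq was performed on dorsal skin of 6 mice, 3 per group. A single table deposited by the authors gives read counts per gene, not normalized, beside FPKM. The deposited FPKM could be rebuilt from counts, gene lengths and library totals (largest difference 4.9e-11). The submitters' processing notes name fastp 0.22.0, HISAT2 2.1.0, HTSeq 0.9.1 and GRCm39, without order. The strand setting of the counting is not given in the sources used here. All 12 value columns were matched to samples by name and 0 were left over. The 10 genes and the gene lists were chosen with earlier results of these data known.

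The groups were compared with the quasi-likelihood test of edgeR 4.0.16 in R 4.3.3, after filterByExpr and TMM scaling, with p-values adjusted over all genes tested by the Benjamini-Hochberg method. CPM are counts per effective library size as scaled by TMM. TMM factors were 1.21 to 1.279 in the vehicle group and 0.746 to 0.929 in the rebamipide group, and genes of the mitochondrial genome took 2.59% to 5.36% and 13.28% to 21.96% of the counts. Alternatives were DESeq2 1.42.0, limma 3.58.1 (voom, and log2(FPKM + 1) or log2(FPKM + 0.1)), other normalizations and filters, other thresholds, a replicate block, a muscle covariate and each library left out. DESeq2 with each library left out and shares by transcript length were added after the data were seen. The named genes were all 10 members, the 3 genes with the smallest p-values of each pathway list and the 3 nearest in profile to each member, of which 4 are not reported here. Other list genes (Fabp5, Acsm3, Acot4, Cpt1a, Slc27a5, Cpt1b and Acot1) and single marker genes were named after their values were seen. On simulated counts for this comparison with 200 genes changed 4-fold, edgeR recovered 97% with 8 false calls among 14778 genes, and DESeq2 recovered 98.5% with 33 false calls. The simulation gave every gene the same dispersion, as many rises as falls, and no other difference in make-up between libraries. These rates therefore do not measure the power or the false calls on the real libraries. Replicates differed by far more than sampling noise (83.1 to 742.3 chi-square units per degree of freedom). Promoter windows came from RefSeq on GRCm38.p6 and were not mixed with the GRCm39 positions. Krt85, of the hair follicle list, was not analysed here.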

Additional observations from a re-analysis of the deposited data

How the results depend on the processing

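No log2 fold change of the 10 genes turned its direction in 237 values from 24 refits. In 182 the side of the threshold stayed, in 19 a call was lost and in 36 a call was gained. Counts of members called lower (2 as reported) were 4 with an adjusted p-value under 0.1, with the thresholds of the study (unadjusted p under 0.05 and a log2 fold change beyond 1), with DESeq2 and with total counts alone, 5 with limma on either log2 FPKM scale, 1 without a filter (Acsl4) and 1 with the muscle covariate, which was Slc27a3 (adjusted p = 0.0243, edgeR) and neither of the reported genes (Acsl4 at -1.39 against -1.35 on the log2 scale with adjusted p = 0.0634, Slc27a4 at -0.95 against -1.12 with 0.0663). Members called higher (2) were 4 with an adjusted p-value under 0.1. With 1 library left out, edgeR gave 0 to 3 members higher and 0 to 2 lower. It gave 0 in both directions without the second vehicle library (smallest adjusted p over all genes 0.0747, and 4116 genes with unadjusted p below 0.05) or without the second rebamipide library (1 gene passing, 4062 with unadjusted p below 0.05), where DESeq2 gave 2 and 3 higher and 4 and 3 lower. With DESeq2 the counts were at most 4 higher and 5 lower, both without the third vehicle library, and 4 lower without the first rebamipide library. List genes called higher (42) were 0 to 46 with edgeR and 1 library left out. List genes called lower (4) were 0 to 6 in those fits, 7 at 0.1 and with the thresholds of the study, 9 with DESeq2, 8 with total counts, and 17 and 15 with limma on log2(FPKM + 1) and log2(FPKM + 0.1). With DESeq2 and 1 library left out they were 7 (vehicle 1), 9 (vehicle 3), 11, 7 and 14 (rebamipide 1, 2 and 3). The cause was not tested. Over all genes DESeq2 called 2719 higher and 2534 lower against 2093 and 968, and edgeR with RLE size factors, the scaling of DESeq2, 2013 and 1041. With total counts alone edgeR called 1258 and 3752, so that its share of higher calls depended on this scaling. Limma on log2(FPKM + 1) called 1401 of 14875 genes higher and 4809 lower, and on log2(FPKM + 0.1) 1391 and 4777. The falls of members and list genes counted with limma above are to be read beside these.

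The difference in family share was 35.39 points for Acsl1, -6.36 for Acsl4 and -21.07 for Acsl5 by counts in place of FPKM (46.3, -8.04 and -26.55 as reported), and -5.98 for Acsl4 by the longest transcript. Here long genes gain weight by construction when lengths are not divided out. The replicate numbers did not pair the samples, as the correlation of deviations was -0.073, -0.028 and -0.039 for equal numbers, and each library was most like one of another number. With the replicate block 3 members were higher (Slc27a1 joining) and 2 lower (Acsl4 and Slc27a6), and 1432 genes were higher and 855 lower in all. Acsl6 and Slc27a6 had too few counts in single libraries for the filter of at least 10 counts in every library, as did Slc27a2, and their levels there are limited by depth.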

Other observations

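Close relatives in the neighbouring lists differed in the same samples. Of the carnitine palmitoyltransferases, Cpt1b, the form of muscle and brown fat, rose from 0.0801 to 0.365 CPM in the vehicle libraries to 3.46 to 15 CPM in the rebamipide libraries (log2 fold change 5.74, adjusted p = 0.0123, edgeR), and Cpt1a was at 58 to 126 and 35.4 to 74.2 CPM without passing (-0.83, adjusted p = 0.167). Of the thioesterases, mitochondrial Acot2 went from 8.05 ± 1.01 to 79.9 ± 26.2 CPM (n = 3 each), while cytosolic Acot1 was at 19.5 to 30.1 and 17.4 to 18.6 CPM (log2 fold change -0.51, adjusted p = 0.15, edgeR). Acot1 and Acot2 are near-identical copies whose reads the counting may have split. These pairs were chosen after their values were seen, and the difference between relatives was not tested.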
